A study of Callithrix jacchus with 54 samples.

Results

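POU5F1, NANOG, SOX2 and PRDM14 are 4 transcription factor genes of the core pluripotency network, chosen by symbol as listed genes of that network. They are 4 of the 14812 genes in the deposited table, with identifiers 100384946 (POU5F1), 100399586 (NANOG), 100407856 (SOX2) and 100411718 (PRDM14). All 4 were among the 11197 genes that passed a filter on low values. Their levels were read in embryonic stem cells of the common marmoset (cjESCs), in 5 inductions set up toward primordial germ cell-like cells (PGCLCs), and in PGCLCs kept with mouse ovarian cells.

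RNA sequencing (poly(A) selected, directional, single-end) gave 54 libraries, 2 biological replicates for each of 27 conditions, all from cells of the line CMES40. Cells carrying inducible human transgenes for BLIMP1, SOX17 and TFAP2C, none of them a gene studied here, were kept in DK20FA medium. They were induced with BLSE (BMP4, LIF, SCF and EGF, here and below with a Rock inhibitor), with SOX17+BLSE (dexamethasone to activate a SOX17 fusion protein) or with SOX17+LSE, which lacks BMP4. Cells without the transgenes were kept in PESFA medium, pre-treated for 1 day with a WNT agonist and activin A, and induced with BLSE and IWR1 (a WNT inhibitor), with or without BMS493 (an inverse agonist of retinoic acid receptors, "BMS" in the group name).

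Each induction was sampled at 12, 24, 48 and 96 h, and BLSE+IWR1 also on day 6 and after 20, 40 and 70 days in xrOvary, an aggregate with mouse fetal ovarian somatic cells. cjESCs and pre-treated cells were sorted as TRA-1-60(+). Cells at 12, 24 and 48 h, and BLSE cells at 96 h, were not sorted. At 96 h of the other 4 inductions, on day 6 and in xrOvary, cells were sorted for tdTomato from the BLIMP1 reporter. The labels call the sorted 96 h cells PGCLCs except those of SOX17+LSE, which, like BLSE cells, they call differentiated. A change from 48 to 96 h in those 4 inductions is therefore also a change from all cells to sorted cells, and the 2 cannot be told apart. Changes from cjESCs or pre-treated cells to later cells also go from TRA-1-60(+) cells to unsorted or tdTomato-sorted cells. Time and treatment cannot be told apart from this change of sort either.

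Pluripotent stem cells and germ cells share much of this network, and the protein products of POU5F1, SOX2 and NANOG bind many of the same regulatory sites. In the mouse, germ cells hold SOX2 and need PRDM14 for their specification. In human germ cells POU5F1 and NANOG are kept while SOX2 is absent and SOX17 is present.

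Values are TPM (transcript abundance scaled to a common total) as deposited, from STAR and RSEM. The table gives no counts, so the depth of each library is unknown. The listed TPM summed to between 790300 and 839203 per library, and 10146 to 12688 genes were above 0. The fewest were in xrOvary day 20 replicate 2, and its replicate was next with 11441. Replicates of a condition had a Pearson r of 0.977 to 0.994 over log2(TPM + 1), lowest for that pair. Levels are given below as replicate 1 and replicate 2, with n = 2 in every condition.

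Changes are differences of mean log2(TPM + 1), tested with limma in a single fit of all 54 libraries. A gene was called (a DEG) where its groups differed over 4-fold with an adjusted p (padj) under 0.01, and where their log2 mean exceeded 1.5. A member is said to rise or fall at a padj under 0.01 alone. With 2 libraries against 2, an exact permutation could not go below p = 0.33, so each test leans on the spread of the other conditions. The p-values measure spread between these samples. On this scale changes of genes at low TPM are understated. A lower level in bulk RNA can mean fewer cells with the transcript or less RNA per cell, and these cannot be told apart. POU5F1 and NANOG have near-identical processed copies elsewhere in primate genomes, and SOX2 lies within the SOX2-OT transcript. Whether reads of these add to the listed values is uncertain and was not tested.

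Fitted from only the libraries compared, 75 of 117 member changes reported over 51 comparisons and differences missed an adjusted p of 0.01. Each such fit holds 2 libraries a group. Other alternatives that ended a call, by padj or by the DEG rule, are named beside it. Median-ratio scaling moved the median change of all genes by over 0.1 in 12 of the 51, from −0.204 to 0.201. Quantile normalization did so in 5, from −0.14 to 0.261. The 51 are the 45 comparisons and 6 differences reported here. Among these 51, the widest median-ratio shifts were −0.204 for BLSE+IWR1 against BLSE at 96 h and 0.201 for xrOvary day 70 against day 6. Changes of that size follow the scaling there. SOX17+BLSE against BLSE at 96 h, not among the 51, shifted by −0.243.

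**Figure D1:**
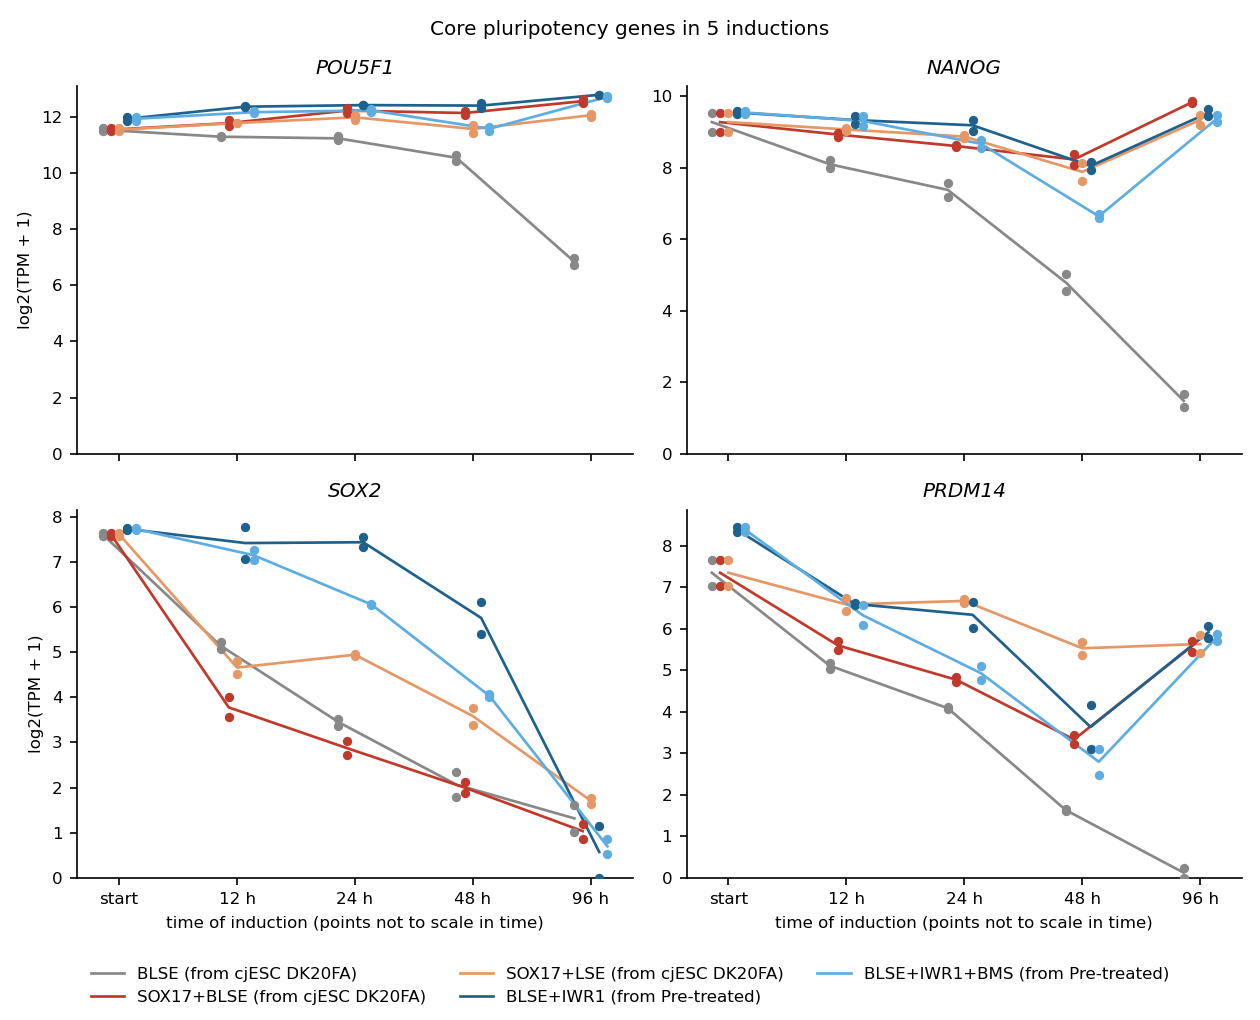
Levels of the 4 genes as log2(TPM + 1) in the 5 inductions, from their starting cells to 96 h. Points are single libraries and lines join condition means, and SOX2 ends under 3 TPM in all 5.

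POU5F1, which codes for a POU-domain factor that maintains pluripotency, was the most abundant member in each of the 54 libraries. Pre-treated cells held 4109 and 3694 TPM of it, and cjESCs held 3429 and 3297 in PESFA and 3082 and 2868 in DK20FA. Neither the change of medium and line (0.18, padj = 0.182) nor pre-treatment against PESFA (0.21, padj = 0.356) passed the threshold. In BLSE it stood at 2536 and 2471 TPM at 12 h, 2284 and 2526 at 24 h, 1608 and 1376 at 48 h and 103 and 125 at 96 h. Every BLSE replicate lay below both DK20FA replicates, and the 96 h pair lay far below all other conditions. The log2 fold change against DK20FA was −0.25 (padj = 0.0831) at 12 h and −0.31 (padj = 0.0207) at 24 h, short of the threshold. POU5F1 then fell at 48 h (−0.999, padj = 2.4e-10) and at 96 h (−4.70, padj = 2.2e-30). Mesoderm markers (6 in the table) summed to 676 and 1214 TPM in DK20FA, with 5 and 6 above 1 TPM, and in BLSE, with all 6 above, to 2649 and 2729.9 TPM at 12 h, 2783 and 2478 at 24 h, 3480.2 and 3602 at 48 h and 3582 and 3400.3 at 96 h. VIM led them except at 24 and 48 h in BLSE, where HAND1 did. Amnion-like markers (5 in the table) went from 36.2 and 58.6 TPM in DK20FA, with 3 above 1 TPM, to 299 and 436 TPM in BLSE at 96 h, with 5 above. Fibroblast markers (6 of 6 above 1 TPM) went from 212 and 248 to 1829.9 and 1159 TPM over the same time. Their part in the falls of the 4 members in BLSE was not tested.

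With SOX17, POU5F1 did not fall below DK20FA in any test. SOX17+BLSE gave 3255 and 3766 TPM at 12 h, 4459.6 and 5098 at 24 h, 4314 and 4678 at 48 h and 6321 and 5730.2 at 96 h. All 8 of these libraries were above both DK20FA replicates. The 12 h change did not pass (0.24, padj = 0.0952). POU5F1 rose at 24 h (0.68, padj = 1.2e-06), 48 h (0.60, padj = 5.6e-06) and 96 h (1.02, padj = 4.3e-11), where the median of all genes was 0.144. Without BMP4, SOX17+LSE gave 3483 and 3531 TPM at 12 h, 3799.7 and 4298 at 24 h, 2723 and 3370.0 at 48 h and 4399 and 4113 at 96 h. Only the 48 h replicates of that induction overlapped DK20FA, and neither 12 h (0.24, padj = 0.0949) nor 48 h (0.03, padj = 0.894) passed. Its rises were 0.44 (padj = 9.3e-04) at 24 h and 0.52 (padj = 3.6e-05) at 96 h (median of all genes 0.152), and both were lost after median-ratio scaling (padj = 0.055 and 0.0273). The 24 h call was also lost without DK20FA replicate 2 (0.0214) and without SOX17+LSE 24 h replicate 2 (0.0461).

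From pre-treated cells, BLSE+IWR1 gave POU5F1 levels of 5275 and 5224 TPM at 12 h, 5439.6 and 5481 at 24 h, 5033 and 5779 at 48 h and 7085 and 6996 at 96 h. None of these libraries overlapped pre-treated cells. The rises were 0.43 (padj = 0.00187) at 12 h, 0.49 (padj = 3.3e-04) at 24 h, 0.47 (padj = 2.7e-04) at 48 h and 0.85 (padj = 2.8e-09) at 96 h. The 96 h rise, beside a median of 0.142 over all genes, passed under each scaling, filter, pseudocount and left-out library tried. The earlier 3 were lost after median-ratio scaling (padj = 0.0212, 0.0236 and 0.0107) and without pre-treated replicate 2 (0.0847, 0.0241 and 0.0167). At 12 h it was also lost without the intensity trend (0.0113), without BLSE+IWR1 12 h replicate 1 (0.0191) and without its replicate 2 (0.0207). The 48 h call was lost without BLSE+IWR1 48 h replicate 2 (0.0151). Fibroblast markers (all 6 in the table above 1 TPM in pre-treated cells, led by COL1A1) summed to 2459 and 4667 TPM there, against 217 and 138 TPM at 12 h, 97.8 and 115 at 24 h, 98.6 and 107 at 48 h and 69.2 and 88.2 at 96 h in BLSE+IWR1. The cells had been kept on mouse fibroblast feeders before pre-treatment, and whether feeder RNA adds to these sums was not tested. The part of these markers in any change against pre-treated cells was not tested.

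With BMS493 added, POU5F1 stood at 4447 and 4725 TPM at 12 h, 4599.9 and 4985 at 24 h, 2899 and 3200.3 at 48 h and 6545 and 6868 at 96 h. The 48 h replicates lay below pre-treated cells and the others above. Changes were 0.23 (padj = 0.124) at 12 h and 0.30 (padj = 0.0252) at 24 h, which passed after quantile normalization (padj = 0.00802 and 0.0047). At 48 h POU5F1 fell (−0.36, padj = 0.00464), a call lost without the intensity trend (0.0191), without pre-treated replicate 1 (0.0859) and without BLSE+IWR1+BMS 48 h replicate 1 (0.0861). It rose by 96 h against pre-treated cells (0.78, padj = 1.8e-08). Fibroblast markers in this induction summed to 278 and 229 TPM at 12 h, 146 and 141 at 24 h, 91.03 and 281 at 48 h and 39.1 and 45.3 at 96 h.

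From 48 to 96 h POU5F1 fell in BLSE (−3.70, padj = 1.8e-26) and rose in the other 4 inductions, in each with both 96 h libraries above both 48 h libraries. The rise was 1.14 (padj = 4.0e-12) in BLSE+IWR1+BMS. In SOX17+BLSE it was 0.42 (padj = 7.6e-04), lost after median-ratio scaling (0.0298) or quantile normalization (0.253), and without SOX17+BLSE 48 h replicate 1 (0.0228) or SOX17+BLSE 96 h replicate 1 (0.028). In SOX17+LSE it was 0.49 (padj = 1.7e-04), lost after median-ratio scaling (0.0157) and without SOX17+LSE 48 h replicate 1 (0.0307). In BLSE+IWR1 it was 0.38 (padj = 0.00134), lost after median-ratio scaling (0.124) or quantile normalization (0.298), and without BLSE+IWR1 48 h replicate 1 (0.0498) or BLSE+IWR1 96 h replicate 1 (0.0128).

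NANOG, which codes for a homeodomain factor of the same network, stood at 769 and 721 TPM after pre-treatment, 692 and 534 in PESFA and 743 and 514 in DK20FA. Neither PESFA against DK20FA (−0.02, padj = 0.949) nor pre-treatment (0.29, padj = 0.52) passed. BLSE took it to 294 and 252 TPM at 12 h, 144 and 190.3 at 24 h, 31.5 and 22.6 at 48 h and 1.46 and 2.17 at 96 h. All 8 BLSE libraries lay below both DK20FA replicates, with no overlap between successive times. The falls were −1.18 (padj = 6.4e-06) at 12 h, −1.90 (padj = 2.2e-10) at 24 h, −4.48 (padj = 5.4e-21) at 48 h and −7.79 (padj = 1.8e-29) at 96 h. NANOG fell again from 48 to 96 h (−3.31, padj = 4.3e-17).

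In the 4 inductions sorted at 96 h, NANOG was lowest at 48 h and higher at 96 h. SOX17+BLSE gave 504 and 466 TPM at 12 h, 382 and 395 at 24 h, 270.2 and 331 at 48 h and 925 and 891 at 96 h. Its 12, 24 and 48 h replicates were below both DK20FA replicates, and its 96 h replicates above them. The fall at 48 h was −1.04 (padj = 7.3e-06), after −0.35 (padj = 0.182) at 12 h. At 24 h (−0.67, padj = 0.00334) the call was lost without DK20FA replicate 1 (0.179), SOX17+BLSE 24 h replicate 1 (0.0296) or its replicate 2 (0.0204). The 96 h rise over DK20FA (0.55, padj = 0.00675) was fragile. It was lost under median-ratio scaling (0.085), pseudocount 0.1 (0.0108), no filter (0.012) and no intensity trend (0.0142). It was also lost without DK20FA replicate 2 (0.24), SOX17+BLSE 96 h replicate 1 (0.0433) or its replicate 2 (0.0251).

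SOX17+LSE took NANOG to 551 and 519.7 TPM at 12 h, 479 and 454 at 24 h, 196 and 282 at 48 h and 709.8 and 587 at 96 h. The 24 and 48 h replicates lay below both DK20FA replicates, and the 12 and 96 h replicates were within the DK20FA pair. Changes were −0.21 (padj = 0.486) at 12 h, −0.40 (padj = 0.0999) at 24 h, −1.39 (padj = 1.3e-07) at 48 h and 0.06 (padj = 0.799) at 96 h. BLSE+IWR1 gave 595 and 694 TPM at 12 h, 522 and 646 at 24 h, 242 and 286 at 48 h and 795 and 691 at 96 h. Both replicates were below the pre-treated pair at 12, 24 and 48 h, and those at 96 h spanned it. Against pre-treated cells the 48 h fall passed (−1.495, padj = 1.4e-08), and the changes at 12 h (−0.21, padj = 0.513), 24 h (−0.36, padj = 0.167) and 96 h (−0.01, padj = 0.986) did not.

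BLSE+IWR1+BMS gave the lowest 48 h NANOG of these 4, at 697 and 571 TPM at 12 h, 438 and 376 at 24 h, 103 and 94.7 at 48 h and 617 and 705 at 96 h. All 8 libraries were below both pre-treated replicates. It fell at 24 h (−0.87, padj = 2.4e-04) and further at 48 h (−2.90, padj = 1.2e-15), with no passing change at 12 h (−0.24, padj = 0.452) or 96 h (−0.17, padj = 0.427). The 24 h call was lost without BLSE+IWR1+BMS 24 h replicate 2 (0.0138). From 48 to 96 h NANOG rose by 1.60 (padj = 3.2e-09) in SOX17+BLSE. The same step was 1.46 (padj = 3.9e-08) in SOX17+LSE, 1.49 (padj = 6.5e-09) in BLSE+IWR1 and 2.73 (padj = 2.4e-15) in BLSE+IWR1+BMS. In each of the 4 both 96 h libraries were above both 48 h libraries.

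NANOG was 21.0% ± 4.37 (SD, n = 2) of POU5F1 in TPM in DK20FA. In BLSE it was 1.80% ± 0.221 at 48 h and 1.58% ± 0.233 at 96 h, with overlapping replicates. It was 4.89% ± 0.0978 in BLSE+IWR1 at 48 h, 10.6% ± 0.948 at 96 h, 13.6% ± 0.501 on day 6 and 18.6% ± 0.305 on xrOvary day 70. POU5F1 itself ranked 2 of 14812 genes in both day 6 libraries, 24 and 34 in DK20FA, and 1565 and 1310 in BLSE at 96 h.

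SOX2, which codes for the HMG-box partner of POU5F1 at shared sites, was the only 1 of the 4 members under 3 TPM at 96 h in all 5 inductions. Pre-treated cells held 216 and 209 TPM, and cjESCs held 235 and 232 in PESFA and 191 and 200.4 in DK20FA. Neither PESFA against DK20FA (0.25, padj = 0.56) nor pre-treatment (−0.14, padj = 0.937) passed. BLSE gave 32.5 and 36.5 TPM at 12 h, 9.36 and 10.6 at 24 h, 2.44 and 4.08 at 48 h and 2.08 and 1.01 at 96 h. No BLSE replicate overlapped DK20FA. The falls were −2.47 (padj = 7.2e-08) at 12 h, −4.17 (padj = 2.0e-13) at 24 h, −5.56 (padj = 1.9e-17) at 48 h and −6.30 (padj = 1.1e-19) at 96 h. SOX17+BLSE gave 14.98 and 10.8 TPM at 12 h, 5.57 and 7.21 at 24 h, 2.66 and 3.36 at 48 h and 0.82 and 1.3 at 96 h. All 8 were below both DK20FA replicates. Its falls were −3.84 (padj = 1.8e-12) at 12 h, −4.74 (padj = 3.6e-15) at 24 h, −5.62 (padj = 2.3e-17) at 48 h and −6.59 (padj = 3.1e-20) at 96 h. The change from 48 to 96 h did not pass in BLSE (−0.75, padj = 0.0724). In SOX17+BLSE it did (−0.97, padj = 0.0075), but not with a pseudocount of 0.1 (0.0912), with no filter (0.0116) or without SOX17+BLSE 48 h replicate 1 (0.02) or 2 (0.0752), or SOX17+BLSE 96 h replicate 1 (0.0938) or 2 (0.0131).

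SOX17+LSE left SOX2 at 26.99 and 21.9 TPM at 12 h, 30.3 and 29.4 at 24 h, 9.51 and 12.7 at 48 h and 2.42 and 2.11 at 96 h. These 8 libraries were also below both DK20FA replicates, but the 12 and 24 h pairs lay close together. The falls were −2.96 (padj = 1.3e-09) at 12 h, −2.67 (padj = 8.0e-09) at 24 h, −4.04 (padj = 2.7e-13) at 48 h and −5.91 (padj = 1.1e-18) at 96 h. From 48 to 96 h the fall of −1.88 (padj = 3.3e-06) was lost with a pseudocount of 0.1 (0.0103).

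On both routes from pre-treated cells, SOX2 at 12 and 24 h was above all libraries of the other 3 inductions at those times. BLSE+IWR1 gave 134 and 218 TPM at 12 h, 159.8 and 187 at 24 h, 41.4 and 68.4 at 48 h and 1.21 and 0 at 96 h. At 12 h the replicates spanned the pre-treated pair, at 24 and 48 h both were below it, and at 96 h SOX2 was nearly absent and listed at 0 in replicate 2. The changes at 12 h (−0.31, padj = 0.566) and 24 h (−0.30, padj = 0.556) missed the threshold. SOX2 fell at 48 h (−1.98, padj = 1.1e-06), a call lost with a pseudocount of 0.1 (0.021), and at 96 h (−7.17, padj = 4.7e-21). The step from 48 to 96 h was −5.19 (padj = 5.6e-17).

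BLSE+IWR1+BMS gave SOX2 levels of 152 and 132 TPM at 12 h, 64.96 and 66.6 at 24 h, 14.99 and 15.8 at 48 h and 0.44 and 0.82 at 96 h. All 8 libraries lay below both pre-treated replicates. The 12 h change missed the threshold (−0.58, padj = 0.212). SOX2 fell at 24 h (−1.68, padj = 2.7e-05, lost with a pseudocount of 0.1 at 0.0709), at 48 h (−3.70, padj = 6.2e-13) and at 96 h (−7.04, padj = 7.3e-21). The change from 48 to 96 h was −3.34 (padj = 4.0e-12).

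PRDM14, which codes for a PR-domain zinc-finger regulator of pluripotency and germ cell specification, stood at 347 and 323 TPM after pre-treatment, 313 and 266 in PESFA and 202 and 130.0 in DK20FA. Both PESFA replicates were above both DK20FA replicates (0.83, padj = 0.00854), and pre-treatment gave 0.21 (padj = 0.831). The PESFA call was lost with a pseudocount of 0.1 (0.0459), no filter (0.0138) or no intensity trend (0.0137). It was also lost without DK20FA replicate 2 (0.201), PESFA replicate 1 (0.0759) or PESFA replicate 2 (0.0256).

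BLSE took PRDM14 to 35.3 and 31.7 TPM at 12 h, 15.6 and 16.3 at 24 h, 2.15 and 2.04 at 48 h and 0.18 and 0 at 96 h. No replicate overlapped DK20FA or the time before. The falls were −2.24 (padj = 1.7e-08) at 12 h, −3.26 (padj = 1.2e-12) at 24 h, −5.72 (padj = 6.4e-20) at 48 h and −7.23 (padj = 8.3e-24) at 96 h. The change from 48 to 96 h was −1.51 (padj = 1.2e-05). SOX17+BLSE gave 44.1 and 50.96 TPM at 12 h, 25.2 and 27.5 at 24 h, 9.92 and 8.26 at 48 h and 51.5 and 42.7 at 96 h. All 8 libraries lay below both DK20FA replicates, and 96 h lay above 48 h. The falls were −1.75 (padj = 1.2e-06) at 12 h, −2.58 (padj = 1.9e-10) at 24 h, −4.02 (padj = 1.4e-15) at 48 h and −1.77 (padj = 1.1e-07) at 96 h, with a rise of 2.25 (padj = 2.4e-09) from 48 to 96 h. Mesoderm markers summed to 676 and 1214 TPM in DK20FA. In SOX17+BLSE they summed to 1891 and 1782 TPM at 12 h and 1727 and 1575 at 24 h. In SOX17+LSE these sums were 1570 and 1622, then 908 and 952. Amnion-like markers summed to 36.2 and 58.6 TPM in DK20FA. At 24 h they summed to 304 and 274 in SOX17+BLSE and 108 and 139 in SOX17+LSE. Their part in the falls of the members was not tested.

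SOX17+LSE held PRDM14 at 106 and 84.96 TPM at 12 h, 104 and 97.8 at 24 h, 40.3 and 50.5 at 48 h and 56.6 and 41.7 at 96 h. All 8 were below both DK20FA replicates. The 12 h change (−0.76, padj = 0.0255) passed without DK20FA replicate 2 (0.00925), and the 24 h change (−0.68, padj = 0.0426) passed under median-ratio scaling (0.00865). PRDM14 fell at 48 h (−1.82, padj = 4.0e-07) and 96 h (−1.72, padj = 2.8e-07). Its 48 and 96 h replicates overlapped (0.10, padj = 0.796).

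BLSE+IWR1 took PRDM14 to 93.8 and 97.7 TPM at 12 h, 63.7 and 99.7 at 24 h, 7.53 and 17.01 at 48 h and 53.5 and 66.1 at 96 h. All 8 were below pre-treated cells, and the 48 h pair was lowest. Against pre-treated cells the falls were −1.79 (padj = 7.5e-07) at 12 h, −2.06 (padj = 3.1e-08) at 24 h, −4.76 (padj = 3.8e-17) at 48 h and −2.47 (padj = 8.1e-11) at 96 h. BLSE+IWR1+BMS gave 93.8 and 66.6 TPM at 12 h, 33.05 and 26.3 at 24 h, 7.63 and 4.57 at 48 h and 51.3 and 57.9 at 96 h. Here too the 48 h pair was lowest, with falls of −2.07 (padj = 4.4e-08) at 12 h, −3.46 (padj = 1.2e-13) at 24 h, −5.60 (padj = 3.9e-19) at 48 h and −2.60 (padj = 2.2e-11) at 96 h. PRDM14 rose from 48 to 96 h by 2.29 (padj = 7.2e-10) in BLSE+IWR1 and 3.002 (padj = 8.2e-13) in BLSE+IWR1+BMS.

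Markers of other cell types were summed at 48 h and in the sorted cells at 96 h, with no test. Mesoderm markers went from 1561 and 1434 to 183 and 212 TPM in SOX17+BLSE, 1149 and 892 to 303 and 375 TPM in SOX17+LSE, 1501 and 1539 to 315 and 386 TPM in BLSE+IWR1 and 2716 and 3085 to 416 and 298 TPM in BLSE+IWR1+BMS. All 6 in the table were above 1 TPM at 48 h and 3 to 5 at 96 h, led by HAND1 or VIM. Endoderm markers (2 of 2 in the table above 1 TPM) went from 119.5 and 107 to 14.9 and 21.5 TPM in SOX17+BLSE, 352 and 265 to 74.9 and 115 TPM in SOX17+LSE, 59.2 and 78.7 to 17.3 and 25.7 TPM in BLSE+IWR1 and 359 and 131 to 64.97 and 41.6 TPM in BLSE+IWR1+BMS, led by GATA6 or FOXA2. Fibroblast markers (6 of 6 above 1 TPM at 48 h, 4 to 6 at 96 h) went from 199.5 and 177 to 44.5 and 39.3 TPM in SOX17+BLSE and from 389.5 and 276 to 134 and 190.3 TPM in SOX17+LSE, with COL3A1 at 0 in 3 of these 4 libraries at 96 h. Amnion-like markers (5 in the table, 4 or 5 above 1 TPM, led by GATA2 or GATA3) went from 645 and 634 to 357 and 430.2 TPM in SOX17+BLSE, 143 and 137 to 139 and 227 TPM in SOX17+LSE, 386 and 398 to 128 and 229 TPM in BLSE+IWR1 and 326 and 477 to 537 and 395 TPM in BLSE+IWR1+BMS. Endothelium markers (4 in the table, 3 or 4 above 1 TPM) went from 33.7 and 34.3 to 27.9 and 22.2 TPM in SOX17+BLSE, 77.4 and 65.04 to 24.9 and 27.2 TPM in SOX17+LSE, 57.3 and 111 to 32.5 and 29.9 TPM in BLSE+IWR1 and 119 and 86.2 to 24.1 and 24.2 TPM in BLSE+IWR1+BMS. Primordial germ cell markers (6 in the table, 5 or 6 above 1 TPM at 48 h and 6 at 96 h) went from 1721 and 1715 to 3377 and 3162 TPM in SOX17+BLSE, 981 and 1013 to 2727 and 2514 TPM in SOX17+LSE, 430.0 and 541 to 2398 and 2699.7 TPM in BLSE+IWR1 and 358 and 560.3 to 3199.5 and 2994 TPM in BLSE+IWR1+BMS, led by PDPN except in BLSE+IWR1+BMS 48 h replicate 2, which TFAP2C led. That list holds the 3 genes of the transgenes, of which BLIMP1 (PRDM1) is also the gene of the reporter used for the sort at 96 h. NANOS3, also in the list, is the gene of the other reporter. PDPN was high in the starting cells too, so these sums are not particular to germ cells. It was at 620 and 444 TPM in DK20FA, 682 and 654 in PESFA and 652 and 584 in pre-treated cells. Neural markers summed to at most 27.1 TPM in any library, and gonadal somatic markers to at most 2.98. The part of these markers in the rises of NANOG, POU5F1 and PRDM14, and in the changes of SOX2, was not tested.

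Counting members by the DEG rule set these changes against all genes. Counts at an unadjusted p under 0.05, here and below, have no share of all genes at that threshold, since percents beside them are by the DEG rule. Comparisons with DK20FA share its 2 libraries and those with pre-treated cells share theirs, so the counts of an induction are not independent. In BLSE, 2, 2, 3 and 4 of the 4 members were called at 12, 24, 48 and 96 h, beside 0.741%, 1.22%, 3.38% and 6.12% of the 11197 genes. These were SOX2 and PRDM14, joined by NANOG at 48 h and POU5F1 at 96 h. SOX17+BLSE had 1, 2, 2 and 1 members called, beside 1.02%, 1.8%, 3.48% and 6.73%, SOX2 at each time and PRDM14 at 24 and 48 h. SOX17+LSE had 1 member called at each time, SOX2, beside 0.768%, 0.902%, 1.46% and 4.57% of genes. Without DK20FA replicate 1 the BLSE 12 h count was 1, and without DK20FA replicate 2 or BLSE 24 h replicate 2 the BLSE 24 h count was 3, with NANOG. Without DK20FA replicate 2 the count became 2 in SOX17+BLSE at 12 and 96 h and in SOX17+LSE at 48 and 96 h. By adjusted p alone, 4 members passed at 96 h in BLSE (29.5% of genes), 4 in SOX17+BLSE (43.2%) and 3 in SOX17+LSE (33.8%).

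Pre-treatment called 0 members in limma (1 at an unadjusted p under 0.05), beside 0.0357% of genes. BLSE+IWR1 had 0, 1, 1 and 2 members called at 12, 24, 48 and 96 h, beside 1.2%, 1.55%, 2.48% and 5.88%, PRDM14 from 24 h and SOX2 at 96 h. At 12 h 2 members passed both an adjusted p of 0.01, as did 6.79% of genes, and an unadjusted p of 0.05, but were under 4-fold. BLSE+IWR1+BMS had 1, 1, 3 and 2 called, beside 1.13%, 1.74%, 3.39% and 6.18%. PRDM14 was called at each of these times, with NANOG and SOX2 at 48 h and SOX2 at 96 h. The BLSE+IWR1 24 h count was 0 without BLSE+IWR1 24 h replicate 1. The BLSE+IWR1 48 h count was 2 after median-ratio scaling or without BLSE+IWR1 48 h replicate 2. The BLSE+IWR1+BMS 12 h count was 0 without BLSE+IWR1+BMS 12 h replicate 2. By adjusted p alone 3 members passed at 96 h in BLSE+IWR1 (40.1% of genes) and 3 in BLSE+IWR1+BMS (38%).

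Between 48 and 96 h, 2 members were called in BLSE (1.29% of genes), 1 in SOX17+BLSE (2.21%), 2 in BLSE+IWR1 (4.49%) and 3 in BLSE+IWR1+BMS (4.8%). These were POU5F1 and NANOG in BLSE, PRDM14 in SOX17+BLSE, SOX2 and PRDM14 in BLSE+IWR1, and NANOG, SOX2 and PRDM14 in BLSE+IWR1+BMS. SOX17+LSE had 0 called in limma beside 1.5%, with 3 members at an unadjusted p under 0.05. That count was 1 after quantile normalization or without SOX17+LSE 48 h replicate 1, and the BLSE+IWR1 count was 1 without BLSE+IWR1 48 h replicate 1. Over 45 comparisons, 0% to 8.55% of genes were DEGs. In 16 comparisons 0 members were called, and in BLSE at 96 h against DK20FA all 4 were. SOX2 was called in 21 (2 higher, 19 lower), PRDM14 in 19 (5 higher, 14 lower), NANOG in 7 (3 higher, 4 lower) and POU5F1 in 3 (1 higher, 2 lower).

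When only the libraries compared were fitted, the member count became 0 in 18 of the 45 comparisons. These were BLSE, SOX17+BLSE and SOX17+LSE at 12 and 24 h, SOX17+LSE at 48 h, BLSE+IWR1 at 24 and 48 h and BLSE+IWR1+BMS at 12 and 24 h. The others were 96 against 48 h in BLSE, SOX17+BLSE and BLSE+IWR1, the effect of BMP4 at 24 and 48 h, and BLSE+IWR1 against BLSE and against SOX17+BLSE at 48 h. In each of the 18, the limma count at an unadjusted p under 0.05 equalled the count from all libraries. The counts at 96 h against the starting cells did not change in any of the 5 inductions.

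The number of all genes called, which the percents rest on, moved by over 1.5 times in some cases. Pre-treatment called 4 genes, but 36 without PESFA replicate 1, 1 without PESFA replicate 2, 8 without pre-treated replicate 2 and 2 with a pseudocount of 0.1. Without pre-treated replicate 2 the count fell from 134 to 74 for BLSE+IWR1 at 12 h and from 126 to 72 for BLSE+IWR1+BMS at 12 h. Day 6 against 96 h went from 18 to 28 without BLSE+IWR1 96 h replicate 1 and to 11 under median-ratio scaling. Day 40 against day 20 went from 23 to 38 without xrOvary day 20 replicate 1. BLSE+IWR1 against SOX17+BLSE at 96 h went from 64 to 98 and 41 without SOX17+BLSE 96 h replicates 1 and 2. BMS493 at 24 h went from 1 to 0 with a pseudocount of 0.1, without BLSE+IWR1 24 h replicate 1 or without either BLSE+IWR1+BMS 24 h replicate. For BMS493 at 48 h the count of 27 was 42 and 41 without BLSE+IWR1 48 h replicates 1 and 2, and 49 and 44 without those of BLSE+IWR1+BMS. For BMS493 at 96 h the count of 4 was 1 and 9 without BLSE+IWR1 96 h replicates 1 and 2, 0 and 8 without those of BLSE+IWR1+BMS, and 2 with a pseudocount of 0.1, no filter or no intensity trend. When only the libraries compared were fitted, 36 of the 45 counts moved. Many of these fell to 0, among them 267 for BLSE+IWR1 against BLSE at 48 h, 257 for day 20 against day 6 and 228 for PESFA against DK20FA. Others fell less, such as from 685 to 417 for BLSE at 96 h against DK20FA.

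**Figure D2:**
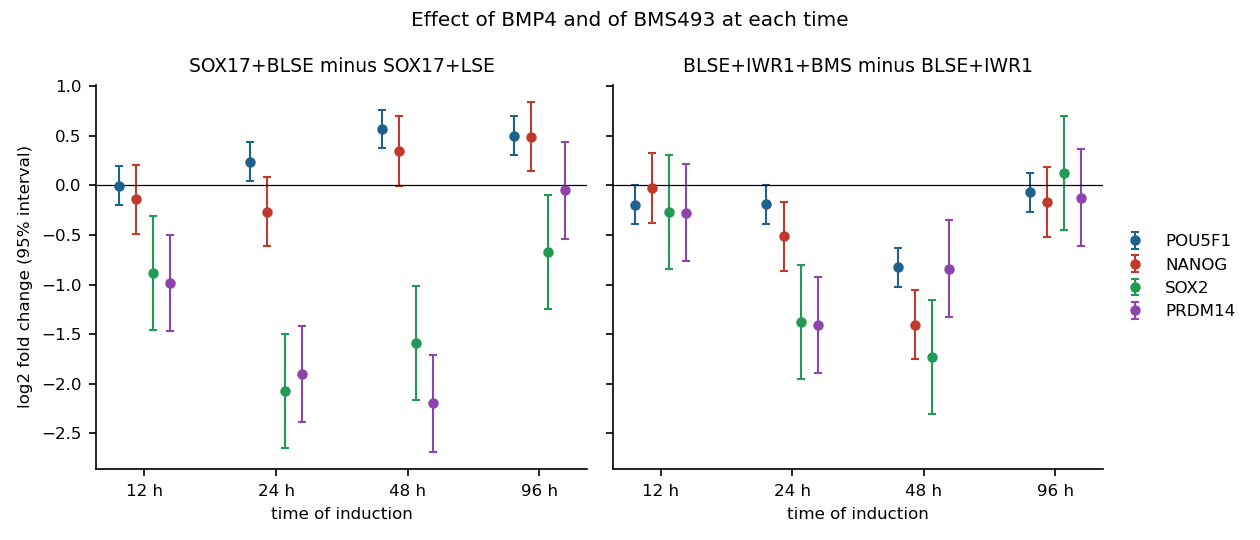
Log2 fold change of each member with a 95% interval at 4 times, for BMP4 (SOX17+BLSE against SOX17+LSE) and for BMS493 (BLSE+IWR1+BMS against BLSE+IWR1).

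The effect of BMP4 was read by setting SOX17+BLSE against SOX17+LSE at the same time, with the levels given above. At 96 h the labels call the former PGCLCs and the latter differentiated cells. At 12 h 0 members were called in limma (2 at an unadjusted p under 0.05), beside 0.0893% of genes. The 12 h change of PRDM14 was −0.99 (padj = 0.0454). SOX2 was lower with BMP4 at 24 h (−2.07, padj = 4.8e-06) and 48 h (−1.59, padj = 9.5e-05), with no overlap of replicates. Both SOX2 calls were lost with a pseudocount of 0.1 (0.0505 and 0.0635). PRDM14 was lower with BMP4 at 24 h (−1.90, padj = 1.0e-06) and 48 h (−2.20, padj = 1.7e-08), and its replicates overlapped at 96 h (−0.05, padj = 0.936). POU5F1 was higher with BMP4 at 48 h (0.57, padj = 4.7e-05, lost without SOX17+LSE 48 h replicate 1 at 0.0141) and 96 h (0.501, padj = 3.4e-04). The 96 h call was lost after quantile normalization (0.0335), without SOX17+BLSE 96 h replicate 1 (0.018) and without SOX17+LSE 96 h replicate 2 (0.0145).

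NANOG did not pass for BMP4 at 12 h (−0.14, padj = 1), 24 h (−0.26, padj = 0.534), 48 h (0.35, padj = 0.212) or 96 h (0.49, padj = 0.054). By the DEG rule BMP4 called SOX2 at 24 h (1 member, 0.214% of genes), PRDM14 at 48 h (1 member, 1.02%) and 0 at 96 h (0.768%). At 96 h 3 members had an unadjusted limma p under 0.05. The 24 h count was 0 with a pseudocount of 0.1 or without SOX17+BLSE 24 h replicate 1. By adjusted p alone 3 members passed at 48 h, beside 8.01% of genes. The change of the BMP4 effect from 48 to 96 h passed for 1 member, PRDM14 (2.15, padj = 8.0e-05), beside 2.54% of genes. Those 284 genes became 135 and 153 without SOX17+BLSE 48 h replicates 1 and 2, 149 without SOX17+BLSE 96 h replicate 1, 153 and 144 without the SOX17+LSE 48 h replicates, 109 without SOX17+LSE 96 h replicate 2, 176 with a pseudocount of 0.1 and 39 when only the libraries compared were fitted. At 48 h amnion-like markers (5 of 5 in the table above 1 TPM on both sides, led by GATA2) summed to 645 and 634 TPM with BMP4 and 143 and 137 TPM without. Endoderm markers (2 of 2 above 1 TPM, led by GATA6) summed to 119.5 and 107 TPM with it and 352 and 265 TPM without. Their part in the result was not tested.

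BMS493 was read against BLSE+IWR1 alone at the same time. In limma 0 members were called by the DEG rule at 12 h (0% of genes), 24 h (0.00893%), 48 h (0.241%) and 96 h (0.0357%). At an unadjusted p under 0.05 the counts were 0, 3, 4 and 0. The 48 h DEG count was 1 without BLSE+IWR1 48 h replicate 1. By adjusted p alone 3 members were lower with BMS493 at 48 h, beside 4.83% of genes. These were POU5F1 (−0.82, padj = 5.0e-07), NANOG (−1.41, padj = 1.1e-06) and SOX2 (−1.73, padj = 7.9e-05), each with both replicates below both of BLSE+IWR1. SOX2 was lost with a pseudocount of 0.1 (0.0775). PRDM14 replicates overlapped at 48 h (−0.84, padj = 0.0189), and it passed under median-ratio scaling (0.00658), quantile normalization (0.00519) or without BLSE+IWR1 48 h replicate 1 (4.6e-04).

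At 24 h PRDM14 passed for BMS493 (−1.41, padj = 0.00184), with both replicates below both of BLSE+IWR1. The call was lost with a pseudocount of 0.1 (0.0389), without BLSE+IWR1 24 h replicate 2 (0.164) and without BLSE+IWR1+BMS 24 h replicate 1 (0.0196) or replicate 2 (0.127). SOX2 missed at 24 h (−1.38, padj = 0.0142). In sorted cells at 96 h POU5F1 (−0.07, padj = 0.812), NANOG (−0.17, padj = 0.714), SOX2 (0.12, padj = 0.91) and PRDM14 (−0.12, padj = 0.882) did not pass.

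The change of the BMS493 effect from 48 to 96 h passed for 3 members, beside 1.15% of genes. Those 129 genes became 82 and 406 without BLSE+IWR1 48 h replicates 1 and 2, 77 and 81 without the BLSE+IWR1 96 h replicates, 55 and 65 without the BLSE+IWR1+BMS 96 h replicates, 81 with a pseudocount of 0.1 and 1 when only the libraries compared were fitted. It was 0.75 (padj = 0.00106) for POU5F1, 1.24 (padj = 0.00253) for NANOG and 1.85 (padj = 0.00556) for SOX2. For SOX2, near 0 at 96 h with or without BMS493, an effect at 96 h could hardly show, so its value mostly restates the 48 h effect. The count was 1, POU5F1, without BLSE+IWR1 96 h replicate 2, BLSE+IWR1+BMS 48 h replicate 2 or BLSE+IWR1+BMS 96 h replicate 2, where NANOG gave padj = 0.0192, 0.0111 and 0.0193. SOX2 was lost with a pseudocount of 0.1 (0.125) and with no filter (0.0106). It was also lost without BLSE+IWR1 48 h replicate 2 (0.0233), BLSE+IWR1 96 h replicate 2 (0.0854), BLSE+IWR1+BMS 48 h replicate 1 (0.0258) or 2 (0.0135), and BLSE+IWR1+BMS 96 h replicate 1 (0.0121) or 2 (0.0415). Mesoderm markers at 48 h (6 of 6 in the table above 1 TPM) summed to 2716 and 3085 TPM with BMS493 and 1501 and 1539 TPM without, led by HAND1. Their part in the result was not tested.

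BLSE+IWR1 and BLSE cells differ in IWR1 and also in transgenes, starting medium and pre-treatment, and at 96 h in the sort (BLSE unsorted), which cannot be told apart. At 48 h NANOG, SOX2 and PRDM14 were called (3 members), beside 2.38% of genes, and all 4 were higher in BLSE+IWR1: POU5F1 1.86 (padj = 8.4e-17), NANOG 3.26 (padj = 1.1e-16), SOX2 3.70 (padj = 2.0e-12) and PRDM14 2.002 (padj = 3.5e-08). PRDM14 was just over 4-fold, and its DEG call was lost under median-ratio scaling (1.987), quantile normalization (1.936), without BLSE 48 h replicate 2 (1.976) and without BLSE+IWR1 48 h replicate 2 (1.463), which left 2 members. At 96 h 3 were called, beside 8.55%: POU5F1 5.94 (padj = 1.1e-33), NANOG 8.05 (padj = 5.8e-30) and PRDM14 5.80 (padj = 5.4e-21). SOX2 replicates overlapped (−0.74, padj = 0.0256), and it passed with a pseudocount of 0.1 (0.00701), median-ratio scaling (0.00933), quantile normalization (0.00409) or without BLSE+IWR1 96 h replicate 1 (5.9e-04). At 48 h, in unsorted cells, the 6 mesoderm markers in the table summed to 3480.2 and 3602 TPM in BLSE and 1501 and 1539 TPM in BLSE+IWR1, led by HAND1 and all above 1 TPM. At 96 h they summed to 3582 and 3400.3 TPM in BLSE (6 of 6 above 1 TPM) and 315 and 386 TPM in BLSE+IWR1 (4 of 6), led by VIM. The 6 fibroblast markers, all above 1 TPM at 48 h, summed to 305 and 325 TPM in BLSE and 98.6 and 107 TPM in BLSE+IWR1. At 96 h they summed to 1829.9 and 1159 TPM in BLSE (6 above 1 TPM) and 69.2 and 88.2 TPM in BLSE+IWR1 (5 and 6 above), led by DCN. The part of either list in the result was not tested.

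Changes from start to 48 h differed between BLSE+IWR1 and BLSE for 3 members, beside 12.2% of genes: POU5F1 by 1.47 (padj = 3.3e-10), NANOG by 2.99 (padj = 1.7e-11) and SOX2 by 3.58 (padj = 1.6e-08). PRDM14 (0.96, padj = 0.0399) passed without BLSE+IWR1 48 h replicate 1 (8.8e-04). The count of all genes fell from 1369 to 833 without pre-treated replicate 2 and to 155 when only the libraries compared were fitted. From 48 to 96 h all 4 differed, beside 22.9%: POU5F1 by 4.09 (padj = 9.4e-23), NANOG by 4.80 (padj = 1.6e-17), PRDM14 by 3.80 (padj = 5.0e-11) and SOX2 by −4.44 (padj = 6.3e-11). SOX2 was at most 2.08 TPM in both at 96 h, so its value mostly restates the 48 h difference. SOX17+BLSE and BLSE differ in dexamethasone as well as SOX17, and at 96 h in the sort, which cannot be told apart. For SOX17+BLSE minus BLSE the step from 48 to 96 h differed for 3 members, beside 15.5%: POU5F1 by 4.12 (padj = 6.9e-23), NANOG by 4.91 (padj = 1.4e-17) and PRDM14 by 3.76 (padj = 2.3e-10). When only the libraries compared were fitted, the gene counts of these 2 steps from 48 to 96 h fell from 2563 to 802 and from 1741 to 1034.

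BLSE+IWR1 was also set beside SOX17+BLSE, and the 2 differ in SOX17, dexamethasone, IWR1, transgenes, medium and pre-treatment, which cannot be told apart. At 48 h SOX2 was the 1 member called between BLSE+IWR1 and SOX17+BLSE (3.76, padj = 1.0e-12), beside 1.8% of genes. POU5F1 (0.26, padj = 0.0349), NANOG (−0.18, padj = 0.458) and PRDM14 (0.30, padj = 0.364) did not pass. By 96 h 0 members were called in limma (1 at an unadjusted p under 0.05), beside 0.572%, and SOX2 gave −0.46 (padj = 0.34). The step from 48 to 96 h differed for SOX2 (−4.22, padj = 2.8e-09), the 1 of 4 members to pass, beside 7.22% of genes. SOX2 was near 0 in both at 96 h, so this value mostly restates the 48 h difference. The 808 genes behind the percent became 435 and 537 without SOX17+BLSE 48 h replicates 1 and 2, 518 without SOX17+BLSE 96 h replicate 2 and 23 when only the libraries compared were fitted. Fitted from only the libraries compared, 0 members passed an adjusted p of 0.01 in this difference and in those of BMS493 and BMP4.

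**Figure D3:**
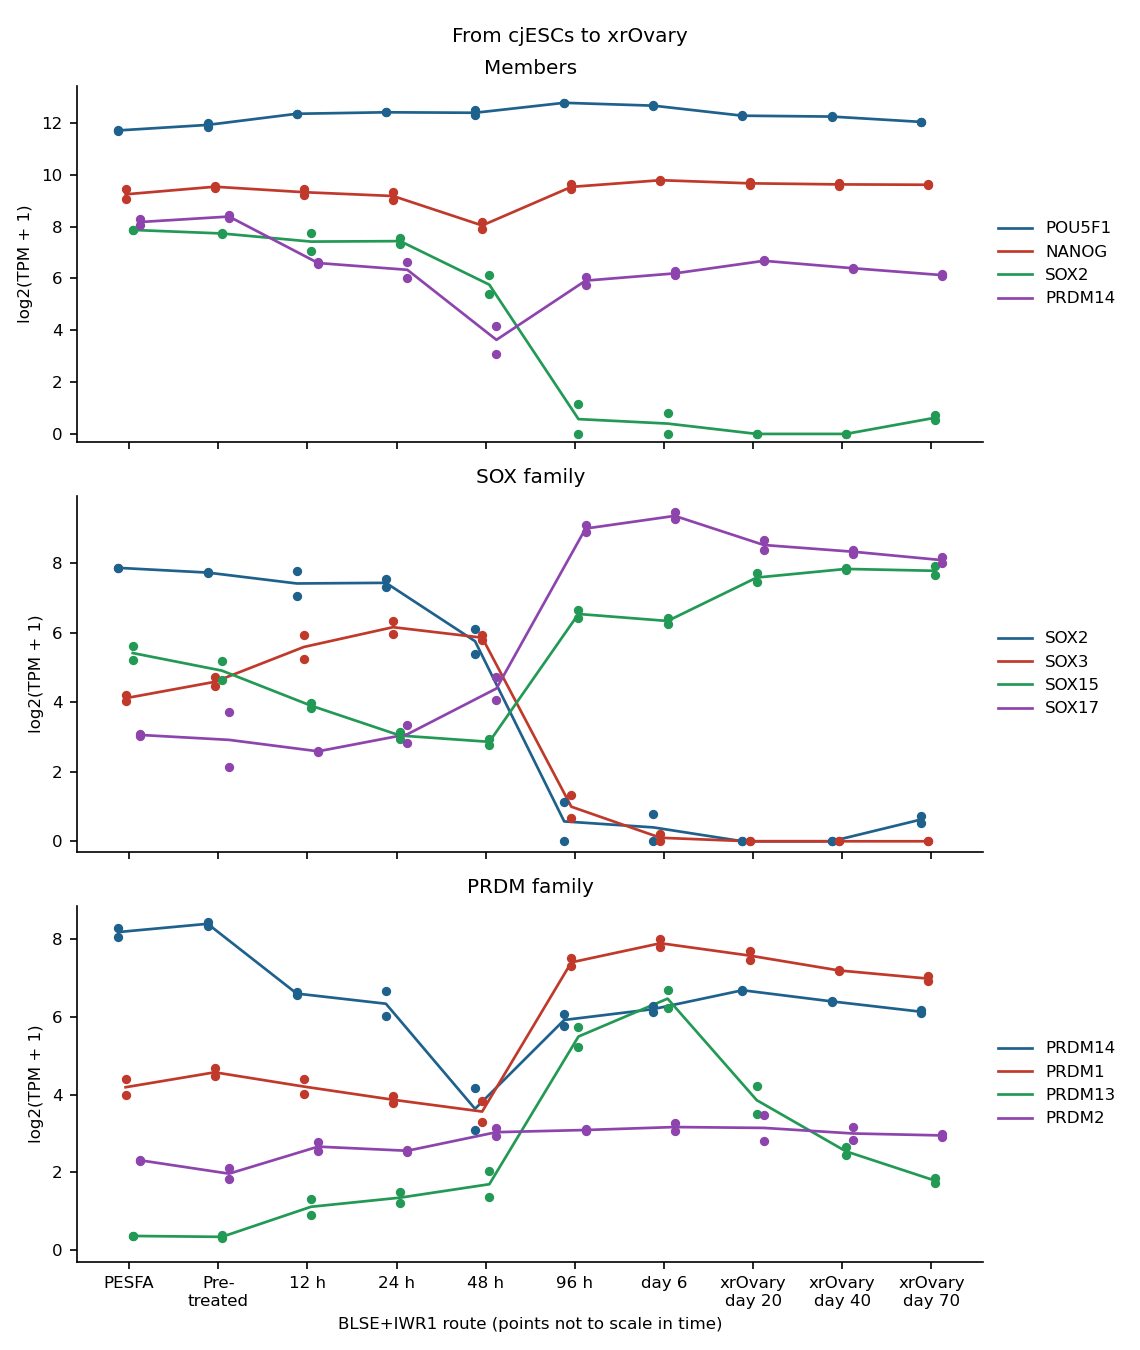
Levels of the members and of named genes as log2(TPM + 1) along the BLSE+IWR1 route, from cjESCs in PESFA to 70 days in xrOvary. Points are single libraries and lines join condition means.

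Later on the BLSE+IWR1 route POU5F1 stood at 6448 and 6598 TPM on day 6, 4891 and 5079.9 on xrOvary day 20, 4956 and 4788 on day 40 and 4194 and 4257 on day 70. NANOG stood at 899.6 and 874, 785 and 847, 758 and 829 and 770.0 and 799.9 TPM, and PRDM14 at 68.4 and 76.6, 101 and 103, 82.5 and 83.9 and 67.4 and 70.8 TPM. SOX2 was listed at 0 and 0.74 TPM on day 6, at 0 in all 4 libraries of xrOvary days 20 and 40, and at 0.44 and 0.65 TPM on day 70. Of the libraries at 0, day 20 replicate 2 is the library with 10146 genes above 0, and day 20 replicate 1 and the day 40 pair had 11441, 11627 and 11716. POU5F1 and NANOG on day 6 lay above both PESFA replicates, PRDM14 and SOX2 below them. Beside a median of 0.107 over all genes, day 6 against PESFA gave 0.96 (padj = 1.5e-10) for POU5F1, −7.47 (padj = 1.1e-21) for SOX2 and −1.98 (padj = 8.2e-09) for PRDM14. NANOG gave 0.54 (padj = 0.00743).

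The NANOG rise to day 6 was lost under median-ratio scaling (0.136), a pseudocount of 0.1 (0.0116), no filter (0.013) and no intensity trend (0.0154). It was also lost without PESFA replicate 2 (0.162), day 6 replicate 1 (0.044) or day 6 replicate 2 (0.0292). By the DEG rule 1 member, SOX2, was called, beside 7.99% of genes, and by adjusted p alone 4 passed, beside 44.9%. The DEG count was 2 under median-ratio scaling, quantile normalization, without PESFA replicate 2 or without day 6 replicate 2. Fibroblast markers, 6 of 6 in the table above 1 TPM, summed to 2919 and 1679.9 TPM in PESFA, led by COL1A1, and to 212 and 248 in DK20FA. On day 6 they summed to 41.9 and 43.9 TPM, with 4 and 5 of the 6 above 1 TPM. Whether RNA of the mouse feeders adds to the sums in PESFA and DK20FA was not tested. Mesoderm markers went from 1313 and 1899.8 TPM in PESFA, with 5 of 6 above 1 TPM, to 303 and 298 TPM on day 6, with 3 above, led by VIM. Their part in the result was not tested.

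Between 96 h and day 6, 0 members were called in limma and 0 had an unadjusted p under 0.05, beside 0.161% of genes called. Day 20 against day 6 called 0 members (1 at an unadjusted limma p under 0.05), beside 2.3%. Day 40 against day 20 called 0 (0), beside 0.205%, and day 70 against day 40 called 0 (2), beside 0.214%. SOX2 passed for day 70 against day 40 with a pseudocount of 0.1 (padj = 0.00853). Over the whole stay, day 70 against day 6 called 0 (1) by the DEG rule, beside 5.39% of genes, and 1 by adjusted p alone, beside 31.3%. That member was POU5F1 (−0.63, padj = 1.5e-06, with a median of −0.201 over all genes), lower in both day 70 replicates than in both of day 6 and lost under median-ratio scaling (0.018). NANOG (−0.18, padj = 0.455) and PRDM14 (−0.07, padj = 0.872) did not pass. Later germ cell markers (2 of 5 in the table above 1 TPM on day 6, 5 of 5 on day 70) summed to 44.6 and 38.1 TPM on day 6 and 201 and 199 TPM on day 70. They were led by DPPA3 except in day 70 replicate 2, which MAEL led. DAZL and DDX4 were at 0 on day 6. Primordial germ cell markers, with all 6 above 1 TPM, went from 3071 and 3319 TPM on day 6 (led by PDPN) to 1509.8 and 1552 TPM on day 70 (led by TFAP2C). Amnion-like markers went from 166 and 234 TPM (4 and 5 of 5 above 1 TPM, led by GATA2) to 25.8 and 24.4 TPM (3 above, led by TFAP2A, with GATA3 and VTCN1 at 0). Mesoderm markers, led by VIM, went from 303 and 298 TPM (3 of 6 above 1 TPM) to 141 and 171 TPM (2 above), with LEF1 at 0 on both days and HAND1 and TBX4 on day 70. Fibroblast markers were at 2.19 and 2.43 TPM on day 70, with 1 of 6 above 1 TPM and DCN and LUM at 0. The part of these markers in the result was not tested.

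POU5F1 on day 20 was also lower than on day 6 in both replicates (−0.39, padj = 0.00203). The call was lost under median-ratio scaling (0.0506) and no intensity trend (0.0102). It was also lost without day 6 replicate 1 (0.0142), day 6 replicate 2 (0.0231), day 20 replicate 1 (0.0221) or day 20 replicate 2 (0.0107). Amnion-like markers were at 20.8 and 15.99 TPM on day 20 (3 of 5 above 1 TPM, led by TFAP2A), mesoderm markers at 660.4 and 733 TPM (2 and 3 of 6, led by VIM) and primordial germ cell markers at 2004 and 2181 TPM (6 of 6, led by TFAP2C). Their part in the result was not tested. PESFA against DK20FA called 0 members in limma (1 at an unadjusted p under 0.05), beside 2.04% of genes.

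Ordered by mean log2 level, POU5F1 was highest in BLSE+IWR1 at 96 h and lowest in BLSE at 96 h. Of its 26 pairs of neighbouring conditions, 17 had overlapping replicates and 2 differed at an adjusted p under 0.01, BLSE 24 over 48 h and BLSE 48 over 96 h. NANOG ran from SOX17+BLSE at 96 h to BLSE at 96 h, with 17 overlapping pairs and 3 that differed. SOX2 ran from PESFA to xrOvary days 20 and 40, both at 0, with 13 overlapping pairs and 0 that differed in limma. It was listed at 0 in 6 of 54 libraries and was under 1 TPM in 12. PRDM14 ran from pre-treated cells to BLSE at 96 h, with 15 overlapping pairs and 3 that differed, and was listed at 0 in 1 library. Most neighbouring places in each order were therefore not resolved. After median-ratio scaling the highest condition was BLSE+IWR1+BMS at 96 h for POU5F1 and xrOvary day 70 for NANOG, and 24, 23, 27 and 27 of the 27 conditions were within 2 places of their rank for POU5F1, NANOG, SOX2 and PRDM14.

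Across the 27 condition means NANOG and POU5F1 had a Pearson r of 0.911 and a Spearman rho of 0.659. The values of PRDM14 with NANOG were 0.865 and 0.681. POU5F1 (mean log2 6.84) and NANOG (1.48) were both lowest in BLSE at 96 h, and how far r rests on that condition was not tested. They did not move together throughout. From pre-treated cells to BLSE+IWR1 at 48 h mean POU5F1 went from 3902 to 5406 TPM and mean NANOG from 745 to 264. SOX2 did not follow POU5F1 (0.052 and −0.298) or NANOG (0.113 and −0.312). The values of PRDM14 were 0.343 and 0.269 with SOX2, and 0.642 and 0.244 with POU5F1.

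The 5 genes most like each member by Pearson r were chosen by that r, which is given as a description. For NANOG they were DPPA5, an RNA-binding protein gene of pluripotent cells (0.967), UTF1, a chromatin factor of undifferentiated cells (0.965), PDPN, a surface glycoprotein (0.962), the tubulin TUBB2B (0.923) and POU5F1. PRDM14 was closest to UTF1 (0.901), the cell cycle factor MYBL2 (0.884), DPPA5 (0.88), BICDL1 (0.877) and NANOG. POU5F1 was closest to the glycosyltransferase LARGE2 (0.912), the ubiquitin ligase MKRN1 (0.912), PDPN (0.911), NANOG and the F-box gene FBXO7 (0.897). SOX2 was closest to the syntrophin SNTB1 (0.981), FOXJ1 (0.973), the calcium-binding S100G (0.969), PDZD4 (0.966) and the calsequestrin CASQ1 (0.966). By Spearman rho, 0, 1, 2 and 0 of these 5 were shared for POU5F1, NANOG, SOX2 and PRDM14. FOXJ1, a factor of motile cilia, was at 228 and 249 TPM in pre-treated cells, 59.6 and 68.3 TPM in BLSE+IWR1 at 48 h and 0.79 and 3.39 TPM at 96 h, a course close to that of SOX2.

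A list of network genes shared with germ cells (13 of 13 in the table passed the filter) was set beside the members. In BLSE at 96 h against DK20FA 6 were called lower and 0 higher, with a median of −1.65 beside −0.08 over all genes, of which 6.12% were called in either direction. In SOX17+BLSE it was 3 and 0 (median −0.996 beside 0.144, and 6.73% of all genes), and in BLSE+IWR1 against pre-treated cells 3 and 0 (−0.60 beside 0.14, and 5.88%). Day 6 against PESFA gave 3 and 0 (−0.51 beside 0.11, and 7.99%), and xrOvary day 70 against day 6 gave 0 and 0 in limma, with 8 at an unadjusted p under 0.05 (−0.30 beside −0.20, and 5.39%). That 5.39% is by the DEG rule, and 31.3% of all genes passed an adjusted p of 0.01 in the day 70 comparison. At day 70, 1 gene was called higher with a pseudocount of 0.1, after median-ratio scaling or quantile normalization, and without day 6 replicate 2 or xrOvary day 70 replicate 2. TDGF1, a NODAL co-receptor, went from 857 and 841 TPM in pre-treated cells to 127 and 121 TPM in BLSE+IWR1 at 96 h, and DPPA2 and NR5A2 were the other 2 called. UTF1 dipped as NANOG did, with 308 and 264 TPM in pre-treated cells, 66.7 and 55.8 TPM at 48 h and 271 and 293 TPM at 96 h.

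Naive-state genes (11) had 4 called lower and 1 higher in BLSE at 96 h (median −1.31), 2 and 1 in SOX17+BLSE (0.09), and 1 and 0 in BLSE+IWR1 (−0.66). On day 6 they had 0 and 0 called in limma, with 9 at an unadjusted p under 0.05 (−0.80), and on xrOvary day 70 against day 6 they had 3 and 1 (−0.43). Of all genes 44.9% passed an adjusted p of 0.01 on day 6. The SOX17+BLSE higher count was 2 without DK20FA replicate 1, and the BLSE+IWR1 lower count was 2 after median-ratio scaling or without BLSE+IWR1 96 h replicate 1. On day 6, 1 was lower with a pseudocount of 0.1, median-ratio scaling or without PESFA replicate 1. On day 70 a pseudocount of 0.1 gave 1 lower and 0 higher. Primed-state genes (16) had 8 called lower and 1 higher in BLSE at 96 h (median −2.35) and 9 and 1 in SOX17+BLSE (−2.30). They had 9 and 0 in BLSE+IWR1 (−2.71), 9 and 0 on day 6 (−3.58), and 3 and 0 on xrOvary day 70 against day 6 (−0.75). ZIC2, 1 of those 3, was lost after quantile normalization and without day 6 replicate 2 or either day 70 replicate (padj = 0.014, 0.0544, 0.0101 and 0.0488). With a pseudocount of 0.1, quantile normalization or without xrOvary day 70 replicate 1 that count of 3 was 1, as it was when only the libraries compared were fitted. Such a fit also left 0 primed-state genes and 0 of the SOX family higher in BLSE. Of all genes 6.12% were called in BLSE, 6.73% in SOX17+BLSE, 5.88% in BLSE+IWR1, 7.99% on day 6 and 5.39% on day 70, with the medians given for the network list. In BLSE+IWR1 the 9 included the NODAL ligand gene (−5.39), FOXD3 (−5.49) and DNMT3B (−3.32).

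Within the SOX family (13 of 17 in the table passed the filter) the members moved both ways. In BLSE+IWR1 at 96 h 3 were called lower (SOX2, SOX3, SOX10) and 1 higher (SOX17), with a median of −0.003 beside 0.142 over all genes, of which 5.88% were called. The counts were 4 and 1 in BLSE at 96 h (median −0.399, 6.12% of all genes), 3 and 2 in SOX17+BLSE (0.274, 6.73%), 4 and 1 on day 6 (−0.113, 7.99%) and 0 and 0 in limma on xrOvary day 70 against day 6 (10 at an unadjusted p under 0.05, median −0.328, 5.39%). The percents are by the DEG rule, and 31.3% of all genes passed an adjusted p of 0.01 on day 70. The share at an unadjusted p under 0.05 is not given. The higher count in SOX17+BLSE was 1 after median-ratio scaling or quantile normalization, and without DK20FA replicate 2 or SOX17+BLSE 96 h replicate 1. In BLSE it was 2 with a pseudocount of 0.1, after median-ratio scaling and without DK20FA replicate 2. SOX17 went from 7.22 and 7.49 TPM in PESFA to 474 and 555 TPM in BLSE+IWR1 at 96 h. Where the transgenes were present, reads of human and marmoset SOX17 cannot be told apart. SOX3, close to SOX2 in sequence, was at 25.3 and 21.1 TPM in pre-treated cells, 60.2 and 54.4 TPM in BLSE+IWR1 at 48 h and 1.5 and 0.59 TPM at 96 h. SOX15 was at 35.2 and 24.1, 5.82 and 6.77 and 85.6 and 99.8 TPM in the same conditions and 241 and 201 TPM on xrOvary day 70.

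Of the POU family 5 of 13 genes in the table passed the filter. POU5F1 in BLSE at 96 h was the only call in the same 5 comparisons (6.12%, 6.73%, 5.88%, 7.99% and 5.39% of all genes), under the scalings, filters, pseudocounts and left-out libraries tried. In limma 4, 3, 3, 3 and 3 of the 5 had an unadjusted p under 0.05. Of all genes 29.5%, 43.2%, 40.1%, 44.9% and 31.3% passed an adjusted p of 0.01, and the share at the unadjusted threshold is not given. The family medians were −0.855 in BLSE, −0.1 in SOX17+BLSE, 0.612 in BLSE+IWR1, 0.432 on day 6 and −0.436 on xrOvary day 70. Of the PRDM family 7 of 10 passed. In BLSE+IWR1 at 96 h PRDM14 was the 1 called lower, and PRDM1 (2.83) and PRDM13 (5.15) were called higher (median −0.019), beside 5.88% of all genes. PRDM1 is another name of BLIMP1, the gene of the tdTomato reporter used to sort cells at 96 h and on day 6. A higher PRDM1 in sorted cells was therefore selected for by the sort. SOX17+BLSE cells also carried a human BLIMP1 transgene. The lower and higher counts were 1 and 1 in BLSE (−0.316, 6.12% of all genes), 0 and 2 in SOX17+BLSE (−0.252, 6.73%), 0 and 2 on day 6 (−0.443, 7.99%) and 1 and 0 on xrOvary day 70 (−0.216, 5.39%). On day 6 the lower count was 1 after median-ratio scaling or quantile normalization, and without PESFA replicate 2 or day 6 replicate 2. In SOX17+BLSE it was 1 without DK20FA replicate 2, and in BLSE the higher count was 0 with a pseudocount of 0.1. PRDM13 went from 0.23 and 0.3 TPM in pre-treated cells to 74.4 and 103 TPM on day 6 and 2.3 and 2.6 TPM on xrOvary day 70.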

How the data were processed

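TPM values as deposited were used without further scaling. The 4 members, the gene lists (network genes shared with germ cells, naive state, primed state, SOX, POU and PRDM families) and the marker lists were chosen with earlier results of these data known. Genes with log2(TPM + 1) of at least 1.5 in at least 1 library passed the filter (11197 of 14812). limma 3.58.1 in R 4.3.3 fitted log2(TPM + 1) with 1 mean per condition over all 54 libraries, an intensity trend and 2-sided moderated tests, with Benjamini-Hochberg adjustment over the genes that passed. A DEG differed over 4-fold, had an adjusted p (padj) below 0.01, and had a log2 mean over both groups above 1.5. Differences between contrasts came from the same fit, with no adjustment across the 6. Genes named are the members, genes of the lists, and the 5 genes with a symbol whose condition means had the highest Pearson r with each member. Fitted values for a lone replicate assume that it varies like the other groups.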

Additional observations from a re-analysis of the deposited data

Results flagged for a closer look

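Of 24 tests of whether a member changed by a different amount in 2 settings, 15 passed an adjusted p of 0.01. Each value is a difference of 2 log2 fold changes. No explanation was tested.

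From 48 to 96 h, SOX17+BLSE exceeded BLSE by 4.12 for POU5F1, 4.91 for NANOG and 3.76 for PRDM14. Over the same step BLSE+IWR1 exceeded BLSE by 4.09 for POU5F1, 4.80 for NANOG and 3.80 for PRDM14, and differed by −4.44 for SOX2. From the start to 48 h, BLSE+IWR1 exceeded BLSE by 1.47 for POU5F1, 2.99 for NANOG and 3.58 for SOX2. At 96 h the BLSE cells were unsorted and the others sorted, and BLSE+IWR1 also began from other cells. SOX17+BLSE cells also received dexamethasone.

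From 48 to 96 h, SOX2 differed by −4.22 between BLSE+IWR1 and SOX17+BLSE. The effect of BMS493 differed between 96 and 48 h by 0.75 for POU5F1, 1.24 for NANOG and 1.85 for SOX2. SOX2 was near 0 at 96 h in each of these conditions, so its values mostly restate differences at 48 h. The effect of BMP4 on PRDM14 differed between 96 and 48 h by 2.15.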

How the results depend on the processing

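Over 45 comparisons and 6 differences, 117 member changes passed the threshold, and none reversed under the alternatives run. They missed the threshold in 75 cases when only the libraries compared were fitted, 12 under median-ratio scaling, 12 with a pseudocount of 0.1, 6 with no intensity trend, 5 with no filter, 3 under quantile normalization and 51 of 528 times when 1 library was left out. The other 87 tests came to pass 3 times under median-ratio scaling, 2 with a pseudocount of 0.1, 4 under quantile normalization and 4 of 384 times without a library. Size factors of the median-ratio scaling were 0.883 to 1.16.

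Member counts by the DEG rule became 0, when only the libraries compared were fitted, in 18 comparisons: BLSE 12 and 24 h, SOX17+BLSE 12 and 24 h and SOX17+LSE 12, 24 and 48 h against DK20FA; BLSE+IWR1 24 and 48 h and BLSE+IWR1+BMS 12 and 24 h against pre-treated cells; 96 against 48 h in BLSE, SOX17+BLSE and BLSE+IWR1; BMP4 at 24 and 48 h; and BLSE+IWR1 against BLSE and against SOX17+BLSE at 48 h. The number of members past padj 0.01 also became 0 in 3 differences: BLSE+IWR1 minus SOX17+BLSE from 48 to 96 h, and the effects of BMS493 and of BMP4 at 96 minus 48 h. These fits have fewer samples.

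Median-ratio scaling gave 2 members for BLSE+IWR1 48 h against pre-treated cells and 2 for day 6 against PESFA. Quantile normalization gave 2 for day 6 against PESFA and 1 for SOX17+LSE 96 against 48 h. Both scalings also ended the PRDM14 call for BLSE+IWR1 against BLSE at 48 h, which left 2 of 3 members. A pseudocount of 0.1 gave 0 for BMP4 at 24 h. The cause was not tested.

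Leaving out each library in turn gave 1 to 2 members in BLSE 12 h, SOX17+BLSE 12 and 96 h and SOX17+LSE 48 and 96 h against DK20FA, in BLSE+IWR1 48 h against pre-treated cells, in BLSE+IWR1 96 against 48 h and in day 6 against PESFA. It gave 0 to 1 in BLSE+IWR1 24 h and BLSE+IWR1+BMS 12 h against pre-treated cells, SOX17+LSE 96 against 48 h, BMP4 at 24 h and BMS493 at 48 h. It gave 2 to 3 in BLSE 24 h against DK20FA and in BLSE+IWR1 against BLSE at 48 h, and 1 to 3 in the BMS493 effect at 96 minus 48 h.

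The replicate number as a block changed 0 calls and 0 counts. Libraries of the same number were not paired by their labels, and their deviations had r of −0.099 to 0.289 over the 51 comparisons and differences reported. Among comparisons not reported, the lowest r was −0.21, for BLSE+IWR1 against BLSE at 24 h. Of the 5 genes most like each member, Spearman rho shared 0 for POU5F1, 1 for NANOG, 2 for SOX2 and 0 for PRDM14. Median-ratio scaling left 24, 23, 27 and 27 of the 27 conditions within 2 places of their rank for POU5F1, NANOG, SOX2 and PRDM14. DEG counts over all genes moved by over 1.5 times in 36 of 45 comparisons when only the libraries compared were fitted, in 3 with a pseudocount of 0.1, in 1 each under median-ratio scaling, no filter and no intensity trend, in 0 under quantile normalization, and in 20 of 180 runs without a library. Counts of all genes past padj 0.01 in the 6 differences moved by as much in 6 of 6 when only the libraries compared were fitted, in 2 with a pseudocount of 0.1 and in 16 of 48 runs without a library. Alternatives for the gene lists were chosen after the data were seen. Depth is unknown from TPM.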
